A study of Mus musculus with 8 samples.

Results

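The genes described here are those that handle oxidants and glutathione in mouse pre-iPSCs, cells on the way to induced pluripotency. A list of 37 gene symbols covered glutathione supply and use, the thioredoxin system, superoxide and peroxide removal, the metallothioneins, and the regulator Nrf2 with its targets. Each gene was read from the probe set with the highest mean among those annotated to that symbol alone. This gave 35 of the 37 genes, out of 19938 genes in all. Prdx5 and Prdx6 were not analysed here. Glutathione is a small cysteine-containing thiol that cells make from amino acids, spend on reducing peroxides and on tagging reactive compounds, and recycle with NADPH. Thioredoxin with the peroxiredoxins forms a parallel thiol system, superoxide dismutases turn superoxide into hydrogen peroxide, and catalase and the peroxidases remove it. Nrf2 (encoded by Nfe2l2) is the transcription factor that drives many of these genes; its partner Keap1 marks it for breakdown until oxidants or electrophiles modify Keap1.

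RNA came from a single clone of MaF pre-iPSCs, named C9 in the series title and MaF pre-iPSC9P2 on the samples, and each of the 8 samples was hybridised to its own Affymetrix array. The vitamin C group (Vc in the labels) received 50 µg/ml vitamin C in mouse embryonic stem cell medium from day 2, a day after plating, without interruption, and the untreated group received the same medium without it. Both groups grew on feeder cells, which were eliminated after trypsin at harvest, and were lysed on days 3, 4, 5 and 6, which gave 4 arrays per treatment and 1 for each treatment and day. The labels do not say whether the days were separate cultures, and p-values therefore rest on how far single arrays scatter around each fit. That scatter mixes variation between arrays, which may be technical, with vitamin C differences that changed by day or courses that were not straight.

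All values are log2 expression levels as deposited, listed in the order of days 3, 4, 5 and 6. The medians of the arrays ran from 4.33 to 4.40 and the correlations between arrays from 0.977 to 0.994. The pluripotency factor Pou5f1 read 11.93 to 12.11 on the 8 arrays. Nanog, which marks established pluripotency, read 7.03, 7.83, 8.46 and 8.87 with vitamin C, against 5.53, 6.34, 6.40 and 6.77 in untreated cells, and passed the test (limma adjusted p = 0.00164 for the vitamin C effect). Of 23 measured feeder or fibroblast markers, 1 (Col5a2) fell with vitamin C over the days, and the median difference of the list was -0.34. Its summed linear level ran from 4640 to 4920 with vitamin C and from 4780 to 7640 in untreated cells, and its mean log2 level was 6.66, 6.55, 6.38 and 6.13 with vitamin C, against 7.14, 7.11, 6.68 and 6.16 in untreated cells. Fap, a fibroblast surface protease, lay at or below the 25th percentile of all genes. In such bulk RNA, fewer cells of a type and less RNA per cell cannot be told apart.

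Vitamin C changed none of the 35 genes past the threshold over the 4 days, against 0.752% of all 19938 genes (150 genes). The fit was limma with day as a factor, adjusted by Benjamini-Hochberg over all genes with a threshold of 0.05. At an unadjusted p below 0.05 there were 9 of the 35 genes (25.7%), against 12.7% of all genes (2531). These 9 were Gstp1, Gpx2, Nqo1, Gsta3, Mt1 and Hmox1 on the higher side and Gpx8, Mgst1 and Txn1 on the lower side. The median difference of the 35 genes was 0.01, beside -0.01 for all genes, and 19 of the 35 lay above 0, beside 48.2% of all genes. In 3 of the 35 genes the 4 vitamin C values did not overlap the 4 untreated values, with Gsta3 and Gstp1 higher and Mgst1 lower, against 4.71% of all genes (939).

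**Figure D1:**
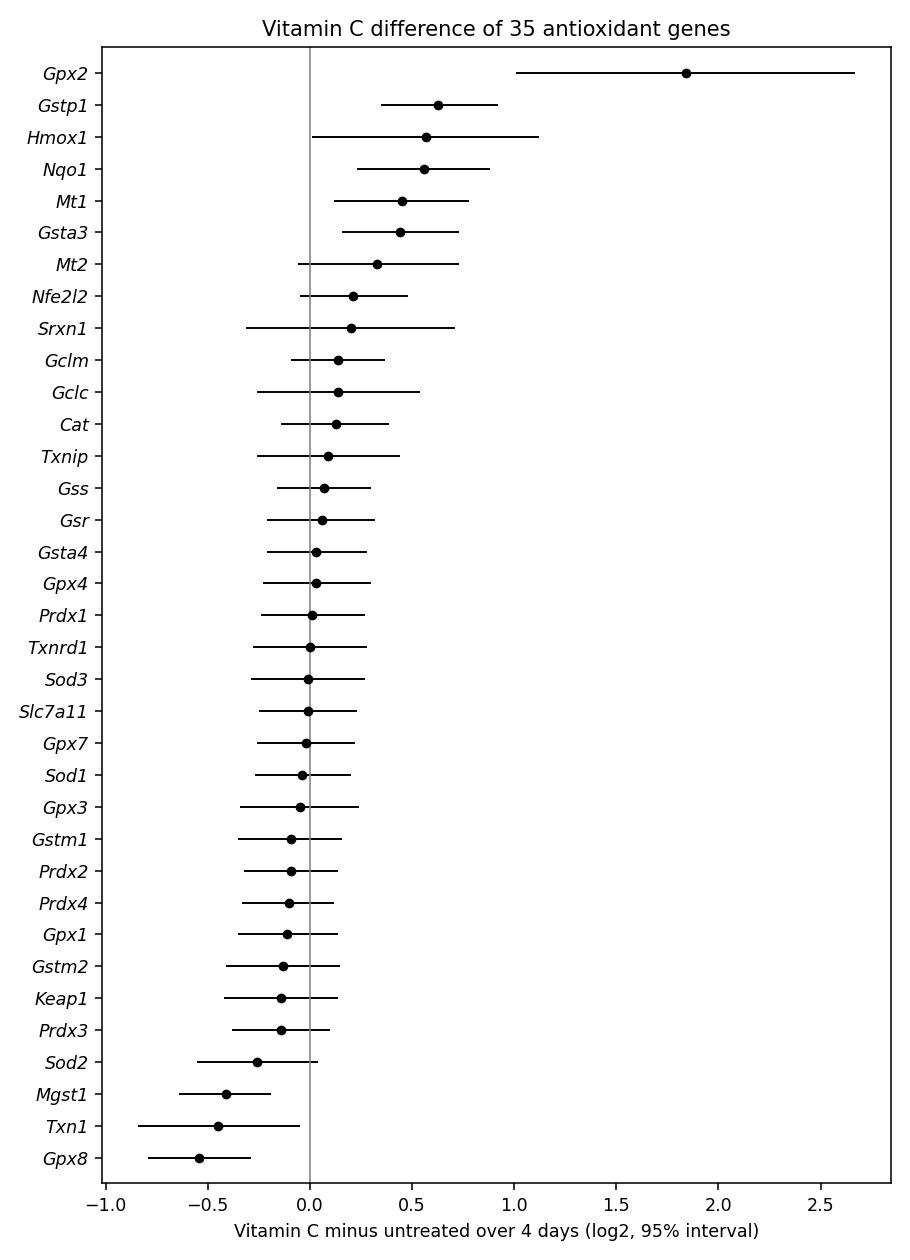
Vitamin C effect over days for the 35 measured genes, as the estimated difference (vitamin C minus untreated, log2) with its 95% interval from limma over 8 arrays. Gpx2 lies farthest to the right at 1.84 with an interval of 1.01 to 2.67, Gpx8 has the lowest estimate at -0.54, and no gene passed the adjusted threshold.

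On single days a few genes stood far apart between the treatments. None of the 35 genes differed by at least 2-fold on day 3, against 0.672% of all genes. Gpx2 did so on day 4 (1.09% of all genes in either direction), and Gpx2 and Hmox1 did so on day 5 (1.23%) and on day 6 (1.82%), each time with the higher value under vitamin C. With 1 array per treatment and day, these daily differences have no replicate check.

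**Figure D2:**
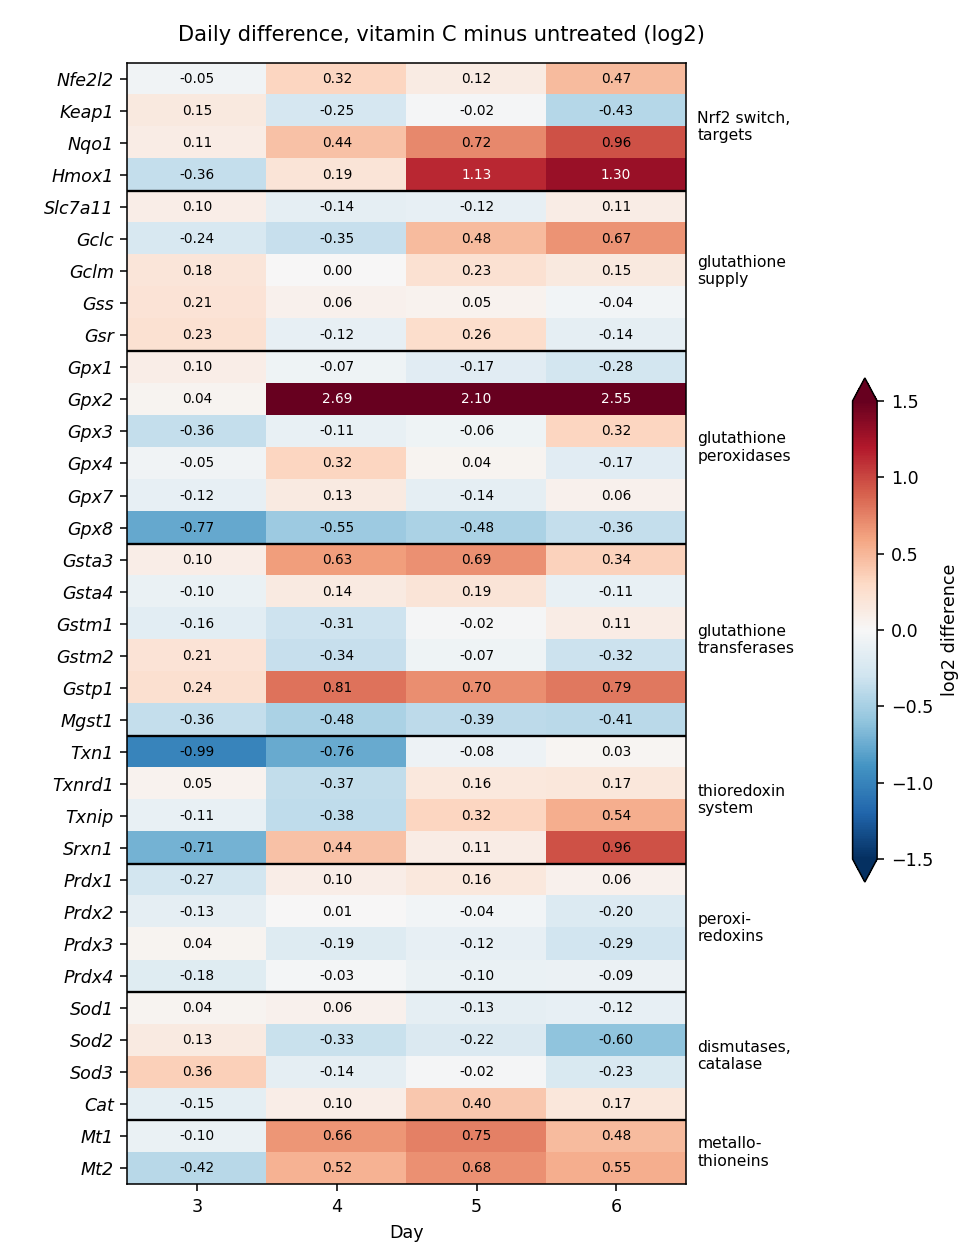
Daily log2 difference, vitamin C minus untreated, for each of the 35 genes (down the page, by role) on days 3 to 6 (across), with red for higher and blue for lower under vitamin C and colours ending at 1.5. Gpx2 is at 2.69, 2.10 and 2.55 on days 4 to 6 after 0.04 on day 3, Hmox1 reaches 1.30 on day 6, and Gpx8 and Mgst1 are below 0 on all 4 days.

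More of the 35 genes passed for time than for vitamin C. Averaged over the treatments, 7 of the 35 genes rose with day, against 6.51% of all genes, and 7 fell, against 6.35% of all genes, by limma with a slope on day for each treatment. Hmox1, Gpx2, Gpx4, Gstm1, Txnip, Cat and Mt2 rose. Slc7a11, Gsr, Gpx1, Gpx8, Prdx3, Sod2 and Nqo1 fell. With vitamin C alone 5 rose (Hmox1, Gpx2, Txnip, Cat and Mt2), against 5.25% of all genes, and 5 fell (Slc7a11, Gpx1, Gpx8, Prdx3 and Sod2), against 3.39%. In untreated cells none rose, against 0.782%, and Slc7a11, Nqo1 and Gpx8 fell, against 0.968%. The fall of Slc7a11 was the only one of the averaged slopes that passed without day 6, when 1 of 14 slopes remained past the threshold; 5, 12 and 7 passed without days 3, 4 and 5. Leaving out single arrays, 7 passed without vitamin C day 3, 8 without vitamin C day 6 (7 of the 14 and Mt1), 5 without untreated day 3, and 1, again Slc7a11, without untreated day 6.

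No gene of the 35 had a vitamin C difference that itself changed with day past the threshold (limma interaction, adjusted p below 0.05), against 0.0652% of all genes (13). At an unadjusted p below 0.05 there were 8 of the 35, against 11.3% of all genes. So a slope that passed under vitamin C and missed the threshold in untreated cells was not shown to differ between the treatments. The interactions with the smallest p were those of Hmox1, Gclc and Srxn1. The median interaction of the 35 was 0.08 per day, beside -0.02 for all genes, and 23 of the 35 lay above 0, beside 44.9% of all genes.

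**Figure D3:**
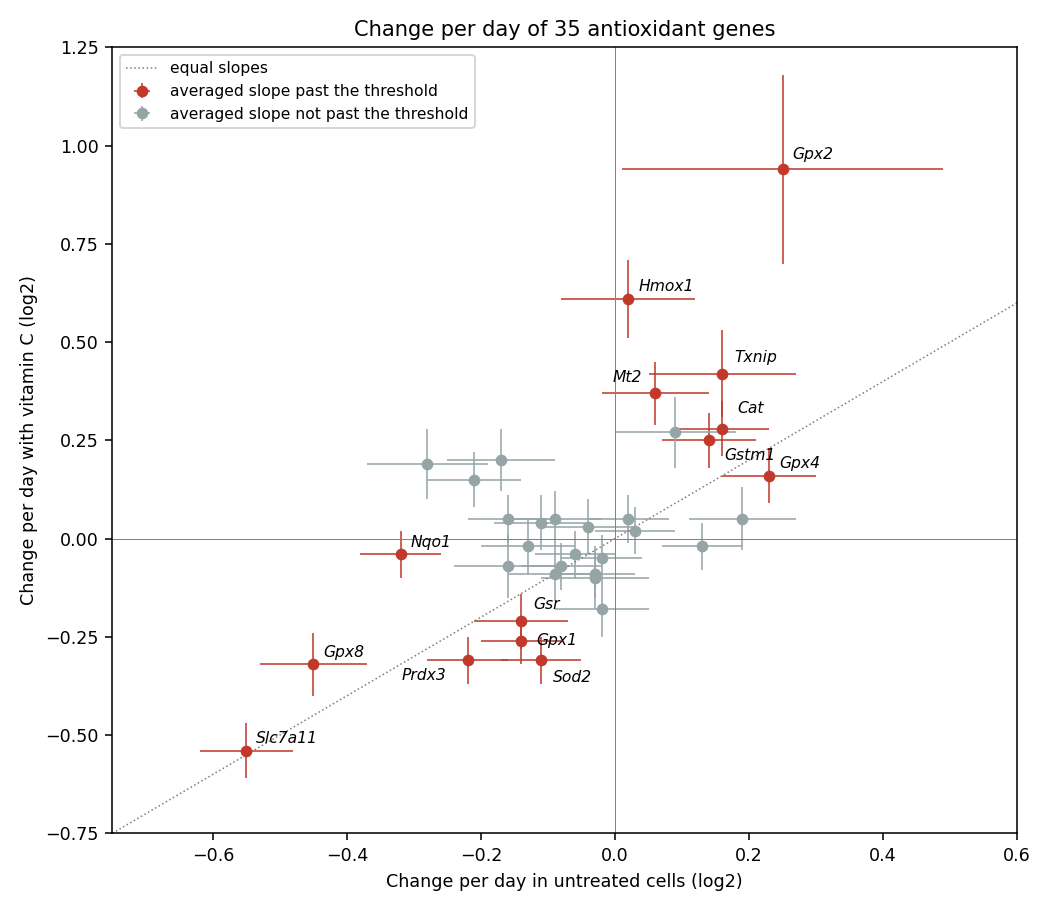
Change per day (log2) with vitamin C (vertical) against the change per day in untreated cells (horizontal) for the 35 genes, with bars for the standard error from limma, red where the slope averaged over the treatments passed the threshold, and a dotted line of equal slopes. Slc7a11 lies on that line at -0.54 and -0.55, while Hmox1 is at 0.61 with vitamin C and 0.02 in untreated cells.

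The transcript of Nrf2 read between 7.34 and 7.95 on the 8 arrays, while Nrf2 protein and its activity were not measured. Nfe2l2 read 7.57, 7.95, 7.70 and 7.82 with vitamin C, against 7.63, 7.64, 7.58 and 7.34 in untreated cells. Keap1 read 5.88, 5.63, 5.84 and 5.73 with vitamin C, against 5.73, 5.87, 5.87 and 6.16 in untreated cells. The treatments overlapped in both genes, with vitamin C effects of 0.21 ± 0.12 for Nfe2l2 and -0.14 ± 0.12 for Keap1 (standard error). The widest daily differences were those of day 6, at 0.47 for Nfe2l2 and -0.43 for Keap1. Neither gene passed the test in any comparison.

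Hmox1, heme oxygenase 1, which splits heme into biliverdin, iron and carbon monoxide, rose late under vitamin C. Its levels were 6.72, 6.80, 7.91 and 8.38 with vitamin C, against 7.08, 6.61, 6.78 and 7.09 in untreated cells. The vitamin C value was lower by 0.36 on day 3 and higher by 0.19 on day 4. On days 5 and 6 it was higher by 2.19-fold and 2.46-fold. The slope was 0.61 ± 0.10 per day with vitamin C (limma adjusted p = 0.00517) and 0.02 ± 0.10 in untreated cells (adjusted p = 0.946). Their difference, 0.59 ± 0.14 per day, did not pass (adjusted p = 0.173). Without day 6 the slope under vitamin C stayed at 0.59 but missed the threshold (adjusted p = 0.132).

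Of 8 macrophage markers, Cd68 and Csf1r also rose with day under vitamin C, beside 5.25% of all genes. Csf1r, the receptor for macrophage colony-stimulating factor, read 3.60, 3.75, 5.15 and 6.76 with vitamin C, against 3.68, 3.68, 3.67 and 4.43 in untreated cells. Cd68 read 5.95, 5.72, 7.14 and 8.10 with vitamin C, against 6.00, 5.77, 6.35 and 7.36 in untreated cells. The other 6 did not pass, and Ptprc, Adgre1, Lyz2 and Fcer1g lay at or below the 25th percentile of all genes. The summed linear level of the list ran from 118 to 430 with vitamin C and from 114 to 240 in untreated cells. On day 6 Cd68 and Csf1r were the highest markers of the list in both treatments, and a linear sum follows such values most. Lyz2 and Tyrobp were lower with vitamin C on every day, and Cd14 on days 3, 5 and 6. Ptprc, Adgre1 and Fcer1g differed in both directions. The part of such cells in the Hmox1 values was not tested.

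Nqo1, a quinone reductase that uses NADPH or NADH, was nearly level with vitamin C and fell in untreated cells. It read 5.65, 5.71, 5.69 and 5.52 with vitamin C, against 5.55, 5.27, 4.98 and 4.56 in untreated cells. The vitamin C value was the higher on all 4 days, with a gap that widened from day to day. With vitamin C the slope was -0.04 ± 0.06 per day (limma adjusted p = 0.714), and in untreated cells it was -0.32 ± 0.06 (adjusted p = 0.0228). Averaged over the treatments it was -0.18 ± 0.04 (adjusted p = 0.0179), which missed the threshold without days 3, 5 or 6. The difference between the slopes was 0.28 ± 0.08 per day (adjusted p = 0.245) and the effect over days 0.56 ± 0.14 (adjusted p = 0.134). The untreated slope missed the threshold when any single day was left out, at -0.35 to -0.29 per day.

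Among the 35 genes, 15 were counted as Nrf2 targets. They were Nqo1, Hmox1, Gclc, Gclm, Gsr, Slc7a11, Gpx2, Gsta3, Gsta4, Gstm1, Gstp1, Txn1, Txnrd1, Srxn1 and Prdx1. This list is a choice, and counts over it depend on that choice. Of these 15 targets, 12 had a vitamin C effect above 0, beside 48.2% of all genes, and none passed the test. The exceptions were Slc7a11, Gstm1 and Txn1, at -0.01, -0.09 and -0.45. Several signs rested on values near 0, with Txnrd1, Prdx1 and Gsta4 counted above 0 at 0.00, 0.01 and 0.03 after rounding. The median effect was 0.14, beside -0.01 for all genes, and the median daily difference was 0.04, 0.10, 0.23 and 0.17 on days 3 to 6. The interaction with day lay above 0 in 14 of the 15, beside 44.9% of all genes, with Gsr as the exception at -0.07. The median interaction was 0.11 per day, beside -0.02 for all genes, and those of Gsta4, Slc7a11 and Gclm were 0.00, 0.01 and 0.01 after rounding. Averaged over the treatments, 3 of the 15 rose with day (Hmox1, Gpx2 and Gstm1) and 3 fell (Slc7a11, Gsr and Nqo1), beside 6.51% and 6.35% of all genes.

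Nrf2 binds antioxidant response elements in DNA. Upstream sequences of RefSeq (assembly GRCm38.p6) were searched on both strands for the core TGACNNNGC in the 250 bases before each start. The core stood in 8 of the 31 listed genes with an entry, in 8 of their 38 windows, and in 10.2% of all 32851 windows. The 8 sites follow, 5′ to 3′ on the strand that carries the core, which is in capitals with 6 bases on either side, since they are the places in these windows where Nrf2's letters occur. Gclc, Gsr, Gsta4, Hmox1, Sod3 and Prdx6 had no entry.
Gclm (chr3:122245417-122245437, minus strand): gagagtTGACGGTGCgcccgg
Gsta3 (chr1:21240458-21240478, plus strand): caggcaTGACATTGCattttt
Mgst1 (chr6:138140465-138140485, minus strand): gcctccTGACCGTGCcaagcc
Mt2 (chr8:94172533-94172553, plus strand): ggggtgTGACTCAGCgcgggg
Nfe2l2 (chr2:75704889-75704909, minus strand): cccaccTGACTCCGCcatgcc
Prdx1 (chr4:116685460-116685480, minus strand): gggggaTGACTCAGCgctttc
Sod1 (chr16:90220700-90220720, minus strand): tgagtcTGACCACGCccacct
Txnrd1 (chr10:82859108-82859128, minus strand): tcagaaTGACAAAGCaaaaat
Such a match is a description of letters, not evidence of binding. Of these 8 genes, Gsta3 and Mgst1 were among the 3 genes whose treatments did not overlap, in opposite directions, and 5 of the 8 (Gclm, Nfe2l2, Prdx1, Sod1 and Txnrd1) had vitamin C effects between -0.04 and 0.21.

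Among the genes that supply glutathione, Slc7a11 fell most with time. Slc7a11, the cystine carrier that brings in the cysteine for glutathione, read 6.28, 5.54, 4.85 and 4.72 with vitamin C, against 6.19, 5.68, 4.97 and 4.61 in untreated cells. Its level dropped day by day in both treatments, which overlapped throughout. The slope was -0.54 ± 0.07 per day with vitamin C (limma adjusted p = 0.00252) and -0.55 ± 0.07 in untreated cells (adjusted p = 0.00633). Over the 3 days from day 3 to day 6 the averaged slope of -0.54 ± 0.05 per day (adjusted p = 0.000272) came to 0.323 of the starting level. The slope with vitamin C missed the threshold without day 3 (-0.41, adjusted p = 0.0981), and the untreated slope did so without day 3 (-0.54, adjusted p = 0.101) or day 6 (-0.61, adjusted p = 0.166). The averaged slope passed in each of the alternatives tried. The vitamin C effect was -0.01 ± 0.11.

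Gclc, the catalytic subunit of the ligase that takes the rate-limiting step to glutathione, read 7.0, 6.88, 7.31 and 7.34 with vitamin C, against 7.24, 7.23, 6.82 and 6.67 in untreated cells. It was lower with vitamin C on days 3 and 4 and higher on days 5 and 6. The interaction of 0.36 ± 0.10 per day had the second smallest p of the 35 genes and did not pass (limma adjusted p = 0.21). Its regulatory partner Gclm read 8.28, 8.07, 8.23 and 8.0 with vitamin C, against 8.10, 8.07, 8.0 and 7.84 in untreated cells. Gss, which adds the glycine, read 7.40, 6.87, 6.93 and 7.03 with vitamin C, against 7.19, 6.81, 6.88 and 7.07 in untreated cells. In both genes the treatments overlapped and no slope passed.

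Gsr, glutathione reductase, which regenerates glutathione with NADPH, read 9.56, 9.15, 9.35 and 8.79 with vitamin C, against 9.33, 9.27, 9.09 and 8.93 in untreated cells. Both treatments ended lower than they began. The averaged slope of -0.17 ± 0.05 per day passed narrowly (limma adjusted p = 0.0476) and missed the threshold when any single day was left out (adjusted p from 0.0547 to 0.63) and after a further quantile normalization (adjusted p = 0.063).

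Among the glutathione peroxidases, Gpx2 showed the widest difference of the whole group of 35 genes. Gpx2, a selenium-containing peroxidase known from the gut epithelium, read 3.76, 6.75, 6.81 and 6.89 with vitamin C, against 3.71, 4.06, 4.71 and 4.34 in untreated cells. The treatments were level on day 3, and from day 4 all 3 vitamin C values lay above every untreated value. Against the untreated array of the same day they were 6.44-fold, 4.28-fold and 5.85-fold higher. The untreated values lay around the medians of their arrays (4.33 to 4.38), so these folds rest on low denominators. Among the differences of all 19938 genes it ranked at place 7 from the top on day 4 and at place 14 on days 5 and 6. The effect over days was 1.84 ± 0.37 with a 95% interval of 1.01 to 2.67 and missed the threshold (limma adjusted p = 0.0674). Without day 3 it was 2.44 and passed (adjusted p = 0.000338), and with the other days left out in turn it lay between 1.56 and 1.76 and did not pass.

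Gpx2's slope under vitamin C, 0.94 ± 0.24 per day (limma adjusted p = 0.036), rested on day 3. Without that day the slope was 0.07 (adjusted p = 0.822) and the averaged slope 0.10 (adjusted p = 0.573), where the averaged slope over all days was 0.60 ± 0.17 (adjusted p = 0.0418). The vitamin C values of days 4 to 6 were nearly level. Without days 5 or 6 the slope under vitamin C was 0.90 and 1.53 and missed the threshold as well. With limma's trend and robust options neither slope passed (adjusted p = 0.0838 with vitamin C and 0.0984 averaged), and after a further quantile normalization the averaged one did not (adjusted p = 0.0517). With the mean level of the feeder markers in place of day, the vitamin C effect was 1.37 (adjusted p = 0.484). That mean itself differed between the treatments, and the part of feeder cells in the Gpx2 values was not tested.

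Gpx8, a peroxidase of the endoplasmic reticulum, ran the other way. It read 6.24, 6.36, 5.87 and 5.35 with vitamin C, against 7.01, 6.91, 6.34 and 5.71 in untreated cells. Vitamin C was lower on all 4 days, by 0.77, 0.55, 0.48 and 0.36, though the ranges overlapped. The effect over days was -0.54 ± 0.11 (limma adjusted p = 0.0729). Gpx8 fell with time in both treatments, by 0.32 ± 0.08 per day with vitamin C (adjusted p = 0.0403) and by 0.45 ± 0.08 in untreated cells (adjusted p = 0.0244), with an averaged slope of -0.38 ± 0.06 (adjusted p = 0.00265). Without day 6 these slopes were -0.19, -0.34 and -0.26 and missed the threshold. Without day 5 the slopes with vitamin C and in untreated cells were -0.33 and -0.46 and missed it too (adjusted p = 0.112 and 0.0936), while without day 3 the 3 slopes were -0.50, -0.60 and -0.55 and passed. The feeder markers had median differences of -0.40, -0.59, -0.32 and -0.03 on the 4 days, with 1 of 23 past the threshold for vitamin C. Over time, 16 of the 23 fell on average over the treatments, beside 6.35% of all genes. With their mean level in place of day in the fit, the vitamin C difference of Gpx8 was -0.06 (adjusted p = 0.911). That mean itself differed between the treatments and fell with day, so this fit cannot tell them apart. The part of feeder cells in the Gpx8 values was not tested.

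Gpx1, the general cytosolic peroxidase, fell with time. It read 8.54, 8.25, 7.92 and 7.78 with vitamin C, against 8.44, 8.33, 8.09 and 8.06 in untreated cells. Each treatment dropped on every day, and the averaged slope was -0.20 ± 0.04 per day (limma adjusted p = 0.0116). With vitamin C it was -0.26 ± 0.06 (adjusted p = 0.0214). Both slopes missed the threshold without days 3, 5 or 6.

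Gpx4, which reduces lipid hydroperoxides in membranes and thereby opposes ferroptosis, rose. Its levels were 9.02, 9.48, 9.46 and 9.56 with vitamin C, against 9.07, 9.16, 9.43 and 9.73 in untreated cells. The treatments overlapped, and the averaged slope was 0.19 ± 0.05 per day (limma adjusted p = 0.0228), which did not pass without days 3, 5 or 6. A further probe set of Gpx4 followed the same course, with a correlation of 0.95 over the 8 arrays. The secreted plasma peroxidase Gpx3 read 5.84, 5.81, 5.84 and 6.01 with vitamin C, against 6.20, 5.92, 5.90 and 5.69 in untreated cells. Gpx7, of the endoplasmic reticulum, read 4.80, 4.91, 4.94 and 4.96 with vitamin C, against 4.92, 4.79, 5.08 and 4.90 in untreated cells. Neither passed in any comparison.

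The glutathione transferases, which join glutathione to reactive compounds, split in direction. Gstp1, the pi-class enzyme, read 9.54, 9.97, 9.86 and 9.72 with vitamin C, against 9.30, 9.16, 9.16 and 8.93 in untreated cells. Every vitamin C value lay above every untreated value. The effect over days was 0.63 ± 0.13, or 1.55-fold, with a 95% interval of 0.35 to 0.92, and it had the smallest p of the 35 genes without passing (limma adjusted p = 0.0661). Without day 3 it was 0.77 and passed (adjusted p = 0.0231).

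Gsta3, an alpha-class transferase, read 6.27, 6.68, 6.59 and 6.41 with vitamin C, against 6.16, 6.05, 5.90 and 6.07 in untreated cells. Here too all vitamin C values were the higher ones, with an effect of 0.44 ± 0.13 (limma adjusted p = 0.172). Mgst1, a transferase of the endoplasmic reticulum and outer mitochondrial membranes, read 4.91, 4.86, 4.97 and 4.96 with vitamin C, against 5.27, 5.34, 5.36 and 5.37 in untreated cells. All vitamin C values of Mgst1 were below all untreated ones, by a steady 0.36 to 0.48 on the 4 days, and the effect was -0.41 ± 0.10 (adjusted p = 0.111).

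Gstm1, a mu-class transferase, rose with time. It read 6.48, 6.30, 6.88 and 7.13 with vitamin C, against 6.64, 6.61, 6.90 and 7.01 in untreated cells. The highest values were those of day 6 in both treatments. The averaged slope was 0.20 ± 0.05 per day (limma adjusted p = 0.0347) and missed the threshold without days 5 or 6, while neither treatment passed alone. Its relative Gstm2 read 6.41, 5.98, 6.47 and 6.43 with vitamin C, against 6.20, 6.32, 6.55 and 6.75 in untreated cells. Gsta4, which acts on lipid aldehydes, read 10.68, 10.83, 10.78 and 10.40 with vitamin C, against 10.78, 10.69, 10.59 and 10.51 in untreated cells. Both overlapped between the treatments and passed no test. Members of these transferase families share sequence, and how far the probe sets tell them apart was not tested.

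In the thioredoxin system the treatments differed early rather than late in thioredoxin itself. Txn1, the small dithiol protein, read 7.94, 7.73, 8.32 and 8.41 with vitamin C, against 8.93, 8.49, 8.40 and 8.38 in untreated cells. Vitamin C was lower by 0.99 on day 3 and 0.76 on day 4, and the treatments were within 0.08 on days 5 and 6. The effect over days was -0.45 ± 0.17 (limma adjusted p = 0.32) and the interaction 0.37 ± 0.11 per day (adjusted p = 0.247).

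Srxn1, sulfiredoxin, which rescues over-oxidised peroxiredoxins, read 5.21, 5.53, 5.31 and 5.92 with vitamin C, against 5.92, 5.08, 5.20 and 4.96 in untreated cells. It was lower with vitamin C on day 3, by 0.71, and higher on day 6, by 0.96. The interaction of 0.47 ± 0.13 per day did not pass (limma adjusted p = 0.223). Txnrd1, the selenoprotein that reduces thioredoxin, read 8.11, 7.53, 7.81 and 7.79 with vitamin C, against 8.06, 7.91, 7.65 and 7.62 in untreated cells, with overlapping ranges and a vitamin C effect of 0.00 ± 0.12.

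Txnip, which binds and inhibits thioredoxin and restrains glucose uptake, rose with time. It read 7.77, 7.84, 8.13 and 9.09 with vitamin C, against 7.89, 8.22, 7.81 and 8.55 in untreated cells. Day 6 held the highest value in both treatments. The slope was 0.42 ± 0.11 per day with vitamin C (limma adjusted p = 0.0356) and 0.29 ± 0.08 averaged (adjusted p = 0.03). Without day 6 these were 0.18 and 0.07 and did not pass, and without day 3 they were 0.63 and 0.40 and did not pass either. Without day 4 they were 0.40 and 0.29, with adjusted p of 0.071 and 0.0534.

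Of the peroxiredoxins, Prdx3, the mitochondrial one, fell. It read 8.90, 8.66, 8.39 and 7.96 with vitamin C, against 8.86, 8.86, 8.51 and 8.25 in untreated cells. The averaged slope was -0.26 ± 0.04 per day (limma adjusted p = 0.00414), and with vitamin C it was -0.31 ± 0.06 (adjusted p = 0.014). The averaged slope missed the threshold without day 6 (-0.21, adjusted p = 0.255), and the slope with vitamin C did so without days 3, 5 or 6.

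The other measured peroxiredoxins kept within narrow ranges on the probe sets used and passed no test. Prdx1, a cytosolic form, read 9.32, 9.59, 9.48 and 9.28 with vitamin C, against 9.59, 9.49, 9.32 and 9.22 in untreated cells. Prdx2, also cytosolic, read 10.37, 10.37, 10.40 and 10.19 with vitamin C, against 10.50, 10.36, 10.44 and 10.40 in untreated cells. Their treatments overlapped, as did those of Prdx4, of the endoplasmic reticulum, which read 6.14, 6.33, 6.26 and 6.05 with vitamin C, against 6.33, 6.36, 6.35 and 6.14 in untreated cells. A further probe set of Prdx1 correlated with the one used at 0.88. It read 9.3, 9.59, 9.3 and 8.98 with vitamin C, against 9.49, 9.45, 9.31 and 8.81 in untreated cells. That of Prdx2 correlated at 0.55 and did not keep as level with vitamin C. It read 6.49, 7.2, 6.83 and 6.22 there, against 6.7, 6.76, 6.76 and 6.78 in untreated cells. Its averages were 6.68 with vitamin C and 6.75 in untreated cells. Which probe set follows each gene more closely was not tested.

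Sod2, the manganese dismutase of mitochondria, fell under vitamin C. It read 9.54, 9.08, 9.06 and 8.50 with vitamin C, against 9.42, 9.41, 9.28 and 9.10 in untreated cells. The gap was widest on day 6, where vitamin C was lower by 0.60. The slope was -0.31 ± 0.06 per day with vitamin C (limma adjusted p = 0.0157) and -0.21 ± 0.05 averaged (adjusted p = 0.015), both lost without days 3 or 6. The untreated slope was -0.11 ± 0.06 (adjusted p = 0.443) and the interaction -0.21 ± 0.09 (adjusted p = 0.433).

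Cat, the peroxisomal catalase, rose. It read 7.42, 7.64, 8.16 and 8.19 with vitamin C, against 7.57, 7.54, 7.76 and 8.02 in untreated cells. The slope was 0.28 ± 0.07 per day with vitamin C (limma adjusted p = 0.0257) and 0.22 ± 0.05 averaged (adjusted p = 0.0128), both lost without days 3 or 6 and the slope with vitamin C also without day 5. Sod1, the cytosolic copper and zinc enzyme, read 9.58, 9.68, 9.36 and 9.38 with vitamin C, against 9.54, 9.62, 9.49 and 9.50 in untreated cells, with an effect of -0.04 ± 0.10. Sod3, the extracellular form, read 3.60, 3.53, 3.29 and 3.07 with vitamin C, against 3.24, 3.68, 3.31 and 3.30 in untreated cells, below the median of every array. Neither passed in any comparison.

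Metallothioneins are short cysteine-rich proteins that bind zinc and copper, and Mt1 and Mt2 are induced by metal through the factor Mtf1. Neither passed for the vitamin C effect, though both had higher values with vitamin C on days 4 to 6. Mt1 read 9.25, 10.07, 10.26 and 10.10 with vitamin C, against 9.35, 9.42, 9.50 and 9.62 in untreated cells. Mt2 read 9.24, 9.93, 10.30 and 10.34 with vitamin C, against 9.65, 9.40, 9.61 and 9.79 in untreated cells. In both genes the day 3 value with vitamin C was below the untreated one and the 3 later values were above all untreated ones. The effect over days was 0.45 ± 0.15 for Mt1 (limma adjusted p = 0.232) and 0.33 ± 0.18 for Mt2 (adjusted p = 0.494). Mt2 rose with time under vitamin C, by 0.37 ± 0.08 per day (adjusted p = 0.0189), and on average over the treatments, by 0.21 ± 0.06 per day (adjusted p = 0.0307). Without day 3 these slopes were 0.21 and 0.20 and did not pass, nor did they pass without days 5 or 6. Of the other measured metallothioneins, Mt4 read 4.15, 3.99, 4.49 and 4.34 with vitamin C, against 4.5, 4.44, 4.69 and 5.22 in untreated cells, lower on every day without passing (-0.47 ± 0.13, adjusted p = 0.157). Mt3 had an effect of 0.06 ± 0.11 (adjusted p = 0.882).

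**Figure D4:**
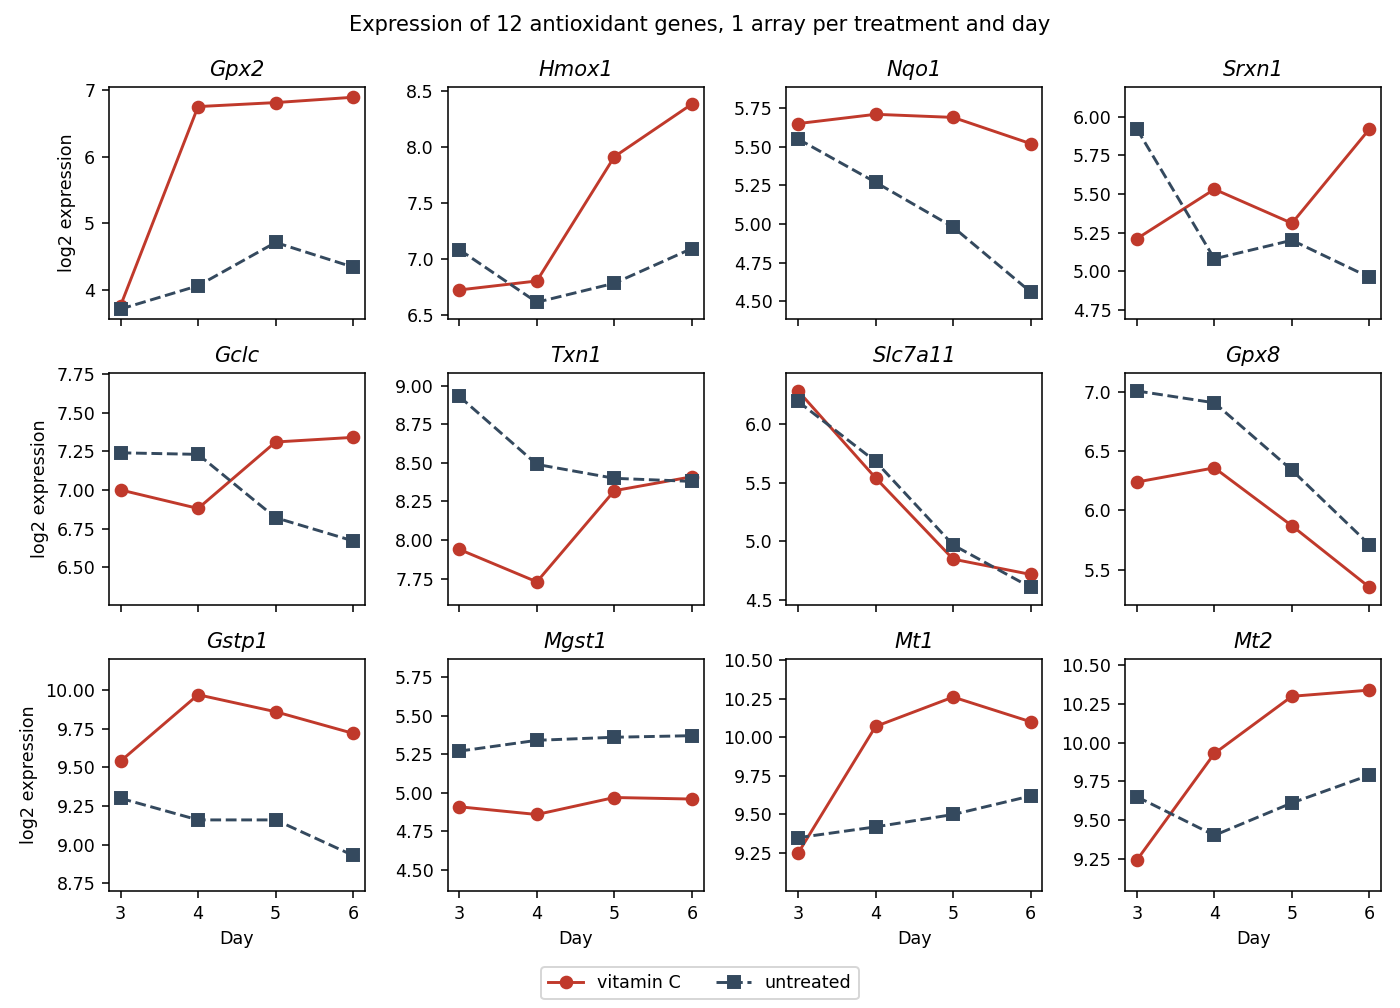
Log2 expression (vertical, a range of its own in each panel) on days 3 to 6 (horizontal) for 12 of the genes, with 1 array per point, red circles for vitamin C and dark squares for untreated cells. Gpx2 with vitamin C is at 3.76 on day 3 and at 6.75 to 6.89 later, Slc7a11 falls alike in both treatments, and Mt1 and Mt2 lie above the untreated arrays from day 4.

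The stretches upstream of Mt1 and Mt2 are shown because these neighbouring genes moved alike and are known to respond to metal through metal response elements. They are the 250 bases before each start in RefSeq's GRCm38.p6, 5′ to 3′, with matches to the metal response element core, TGCACNC or TGCGCNC on either strand, in capitals.
Mt1 (chr8:94178839-94179088, plus strand): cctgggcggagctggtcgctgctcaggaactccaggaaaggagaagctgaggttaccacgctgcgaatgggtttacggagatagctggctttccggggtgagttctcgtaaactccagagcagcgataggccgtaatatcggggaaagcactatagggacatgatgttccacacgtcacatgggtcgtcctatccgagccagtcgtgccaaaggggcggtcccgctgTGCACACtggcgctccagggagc
Mt2 (chr8:94172368-94172617, plus strand): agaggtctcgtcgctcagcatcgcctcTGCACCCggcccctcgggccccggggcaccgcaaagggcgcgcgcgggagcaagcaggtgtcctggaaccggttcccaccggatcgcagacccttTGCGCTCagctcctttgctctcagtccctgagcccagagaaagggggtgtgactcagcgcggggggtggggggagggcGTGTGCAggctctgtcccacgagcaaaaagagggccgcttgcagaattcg
Mt2 held 3 matches and Mt1 held 1 in these windows. The counts depend on the start used, and sequence outside the windows, including that after each start, was not searched. A match stood in 21.4% of the 32851 windows and in 8 of the 31 listed genes with an entry (Gclm, Gpx7, Gstm1, Mt1, Mt2, Prdx4, Srxn1 and Txnip), and 3 or more stood in 1.26% of the windows. The antioxidant core of Mt2 shown above overlapped none of its metal matches.

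Of 106 further measured genes around these pathways, none passed for the vitamin C effect or for the interaction. Averaged over the treatments, 13 rose with day and 10 fell, beside 6.51% and 6.35% of all genes. With vitamin C alone 10 rose and 5 fell, beside 5.25% and 3.39%. In untreated cells 1 rose (Gstt2) and 2 fell (Msrb3 and Mthfd2), beside 0.782% and 0.968%. The smallest p belonged to Slc40a1, ferroportin, the iron exporter. Slc40a1 read 4.73, 5.48, 6.63 and 7.04 with vitamin C, against 4.90, 4.88, 4.89 and 5.59 in untreated cells, with a slope of 0.81 ± 0.09 per day with vitamin C (limma adjusted p = 0.00081). It rose beside Hmox1, which frees iron from heme, and beside Cd68 and Csf1r, whose part was not tested. Among the 10 further genes of iron and heme handling, only Slc40a1 rose past the threshold with vitamin C. Blvra fell by 0.37 per day (limma adjusted p = 0.0348) and Slc39a14 by 0.25 per day (limma adjusted p = 0.0418).

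Arrdc4, an arrestin-domain relative of Txnip, read 5.59, 5.77, 6.32 and 6.76 with vitamin C, against 5.81, 5.85, 5.96 and 6.03 in untreated cells. It rose with vitamin C by 0.41 per day (limma adjusted p = 0.00357). Gstt2, Gstt1 and Gstm3, further transferases, rose by 0.36, 0.27 and 0.31 per day averaged over the treatments, and Selenop, a selenium carrier, by 0.28. Mthfd2, a mitochondrial enzyme of folate metabolism, and Msrb3, a methionine sulfoxide reductase, fell by 0.34 and by 0.35 per day (adjusted p = 0.00119 and 0.0013). These 8 genes are those with the smallest p for the averaged slope.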

How the data were processed

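Expression was measured on 8 Affymetrix whole-transcript arrays, 4 with vitamin C and 4 untreated, grouped by the treatment and day in the labels. Per the submitters' processing notes, the authors used RMA and Partek to make the deposited log2 values; further settings were not given in the sources used here. Their log2 scale was read from the values: the largest, 13.8, exceeds the natural log of the largest 16-bit reading (11.1) and lies under its log2 (16.0).

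Of 28853 probe sets, the platform annotation gave 1 symbol to 21789 and several to 1621, and 5443 were not listed. The probe set with the highest mean per gene left 19938 genes, with no filter on low values. All were fitted with limma 3.58.1 in R 4.3.3, two-sided, and p-values were adjusted over all genes with a threshold of 0.05. The vitamin C effect had day as a factor, which pairs the 2 arrays of a day because the labels give them the same day. The slopes and their interaction came from 1 model with a slope on day for each treatment. Errors are standard errors of these fits. Tables and plots used Python 3.11.15, pandas 2.3.3 and matplotlib 3.10.9. The fits were tested on simulated data.

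The genes and gene lists were chosen with earlier results of these data known, so counts over a list describe it and carry no test. Statistics are given for every gene of the list past the threshold in a comparison, and otherwise for those with the smallest p. Of the 106 further pathway genes, at most 8 per comparison by smallest p are named, besides Mt3, Blvra and Slc39a14. Probe positions and protein sequences were not used here. The number of arrays limits the precision.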

Additional observations from a re-analysis of the deposited data

Results flagged for a closer look

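In each gene and treatment the highest and the lowest of the 4 arrays were set against the others, and 6 of 70 combinations had an array standing apart (a gap to its nearest neighbour beyond Dixon's critical value for 4 samples), which is 8.57%, where chance gives about 5%. Gpx2 with vitamin C was at 3.76 on day 3, against 6.75 to 6.89 on the later days. Gpx3 with vitamin C was at 6.01 on day 6, above 5.81 to 5.84 on the other days. Gstm2 with vitamin C was at 5.98 on day 4, below 6.41 to 6.47. Prdx2 with vitamin C was at 10.19 on day 6, below 10.37 to 10.40. Prdx4 in untreated cells was at 6.14 on day 6, below 6.33 to 6.36. Sod3 in untreated cells was at 3.68 on day 4, above 3.24 to 3.31. The 4 arrays of a treatment are different days, so an array that stands apart is also a day that does.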

How the results depend on the processing

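Of 672 recomputed values of 33 named results under the alternatives, 491 kept their direction and side of the threshold, 169 no longer passed, 12 newly passed and 0 reversed. For the vitamin C effect, where 0 genes passed, 2 passed with limma's trend and robust options (Gpx8 and Gstp1), 3 at an adjusted p below 0.1 (these and Gpx2), 1 with day as a number (Gstp1), 0 with no replicate block, and 0 to 2 with a day or array left out, the 2 without day 3 being Gpx2 and Gstp1. For the interaction 0 passed in all alternatives, the replicate block included, which was added after seeing the data. The slopes with vitamin C passed for 10 genes, for 2 at an adjusted p below 0.01, and for 1 to 10 with a day or array left out. In untreated cells 3 passed, 5 with the trend and robust options, 1 at 0.01, and 0 to 3 with one left out. Averaged over the treatments 14 passed, 3 at 0.01, 12 after a further quantile normalization (without Gpx2 and Gsr), 14 with the trend and robust options (Mt1 in place of Gpx2), and 1 to 15 with one left out. Fewer arrays leave fewer residual degrees of freedom; beyond that the cause was not tested. The median of the 35 genes moved throughout by less than the median standard error of the single-gene estimates, a wider measure than the error of a median. Converting linear values to log2 did not apply, as the values were already logged. With 1 array per treatment and day, no daily difference has a replicate, and genes in the dimmest part of the range, such as Sod3, may be limited by array background.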
